A study of Mus musculus with 12 samples.

Results

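The interferon regulatory factor (Irf) genes described here are Irf1, Irf2, Irf3, Irf4, Irf5, Irf7, Irf8 and Irf9. They are 8 of the 23185 genes measured in gastrocnemius, the large calf muscle, and were found by gene symbol, each with 1 probe set. The samples were 12 microarrays, 1 per mouse and 3 per group, from mice of the BKS.Cg-Dock7m +/+ Leprdb/J strain aged 12 weeks, an obese and diabetic model in which the leptin receptor is defective. Each had been given an adenovirus that carries a short hairpin RNA (shRNA) 1 week before the muscle was taken, so no mouse was free of virus. Mice labelled TSC22D4+LCN13 shRNA received the TSC22D4 and LCN13 viruses in equal parts and no control virus. Those labelled TSC22D4 shRNA received TSC22D4 virus with an equal part of control virus, and those labelled LCN13 shRNA received LCN13 virus with an equal part of control virus. The control shRNA group received control virus alone, and the total virus dose was the same in all 4 groups. TSC22D4 is a transcriptional regulator of the TSC22 family and LCN13 a secreted lipocalin. From each group of 7 treated mice, 3 representative animals were chosen for the arrays, so the spread between arrays may understate that between all treated mice.

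The Irf proteins are transcription factors that share an N-terminal DNA-binding domain with a repeat of tryptophans and bind DNA elements built from GAAA. Irf3 and Irf7 are activated by phosphorylation downstream of sensors of viral nucleic acid and switch on interferon genes. Irf9 is the DNA-binding subunit of ISGF3, the complex with Stat proteins that answers type I interferon, and Irf7 is itself a gene that ISGF3 induces. Irf1 is an activator induced by interferon-gamma, and Irf2 competes with it for the same sites. Irf4, Irf5 and Irf8 act mainly in lymphocytes, macrophages and dendritic cells.

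Some facts of the whole series bear on what follows. The deposited values are log2 levels between 4.78 and 14.09, and any pair of arrays correlated at 0.990 to 0.998. Tsc22d4 averaged 6.82 in TSC22D4+LCN13 and 6.82 in TSC22D4 arrays, against 6.59 in control arrays (limma adjusted p = 0.337 and 0.619). Obp2a, the current symbol of Lcn13, stayed between 4.90 and 4.97 on every array, near the lowest deposited value, so a fall could hardly be seen. Lower Tsc22d4 RNA was thus not seen in muscle, and Obp2a was not informative. Each group below means the arrays so labelled. Fell and rose mean lower and higher than in the arrays compared against, not a change over time. All target groups had less control virus than the control group. Effects of target virus and of less control virus thus cannot be told apart in any comparison with control. Skeletal muscle markers averaged 13.5 to 13.6 on every array, whereas the 8 tendon and fibroblast markers averaged 9.60 to 10.2 in TSC22D4+LCN13, 9.32 to 9.95 in TSC22D4, 9.75 to 10.02 in LCN13 and 8.74 to 9.65 in control arrays. Since the tissue is a mixture, fewer cells of a type and less RNA per cell cannot be told apart.

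The promoters of 5 members are shown. Irf7 and Irf9 fell in these arrays, and Irf1, Irf2 and Irf8 hold an interferon-type element in this stretch. The windows of Irf3, Irf4 and Irf5, which were not called lower, hold no such element, like those of Irf7 and Irf9. A link between these elements and the changes was not tested. Each promoter is 1 RefSeq window of 300 bases on GRCm38.p6, from 250 bases before to 50 after a transcription start. Capitals mark any match on either strand to GAAA, any 2 bases and GAAA (the core of the interferon-stimulated response element), TTCNNNGAA (the gamma-activated site bound by Stat dimers) or TATAAA (the TATA box).
Irf7, chr7:141266375-141266674, minus strand: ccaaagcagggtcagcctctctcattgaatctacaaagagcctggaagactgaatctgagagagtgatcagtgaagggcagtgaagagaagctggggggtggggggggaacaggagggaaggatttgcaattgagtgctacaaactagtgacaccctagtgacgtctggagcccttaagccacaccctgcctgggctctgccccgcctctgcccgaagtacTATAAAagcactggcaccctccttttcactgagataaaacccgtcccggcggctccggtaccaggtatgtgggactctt
Irf9, chr14:55603735-55604034, plus strand: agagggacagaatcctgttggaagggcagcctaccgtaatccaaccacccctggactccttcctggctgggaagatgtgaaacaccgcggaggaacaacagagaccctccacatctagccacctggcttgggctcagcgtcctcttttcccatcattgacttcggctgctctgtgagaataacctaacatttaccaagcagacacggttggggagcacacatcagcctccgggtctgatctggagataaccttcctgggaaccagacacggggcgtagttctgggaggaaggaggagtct
Irf1, chr11:53769764-53770063, plus strand: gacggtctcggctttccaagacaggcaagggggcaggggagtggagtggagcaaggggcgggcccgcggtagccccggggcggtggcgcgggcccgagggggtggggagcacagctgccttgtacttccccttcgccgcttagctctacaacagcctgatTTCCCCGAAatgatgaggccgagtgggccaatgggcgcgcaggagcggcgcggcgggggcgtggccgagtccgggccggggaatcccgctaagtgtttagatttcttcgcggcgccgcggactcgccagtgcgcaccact
Irf2, chr8:46739495-46739794, plus strand: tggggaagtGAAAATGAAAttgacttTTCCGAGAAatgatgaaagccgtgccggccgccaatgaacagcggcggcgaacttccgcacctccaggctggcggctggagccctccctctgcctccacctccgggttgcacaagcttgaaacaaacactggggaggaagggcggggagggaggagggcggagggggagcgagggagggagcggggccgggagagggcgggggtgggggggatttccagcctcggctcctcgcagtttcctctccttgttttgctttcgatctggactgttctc
Irf8, chr8:120736108-120736407, plus strand: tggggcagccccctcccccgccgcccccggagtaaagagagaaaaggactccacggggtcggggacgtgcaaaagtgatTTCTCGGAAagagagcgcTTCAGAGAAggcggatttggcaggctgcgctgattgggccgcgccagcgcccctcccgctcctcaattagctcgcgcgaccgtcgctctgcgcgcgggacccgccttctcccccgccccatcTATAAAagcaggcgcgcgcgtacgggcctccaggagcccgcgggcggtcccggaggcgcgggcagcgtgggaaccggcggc

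The Irf7 window held a TATA box starting at position -29 from the start site and neither interferon-type element, and the Irf9 window held none of the 3 motifs. The Irf1 window held 1 gamma-activated site at -90, and the Irf8 window 2 such sites, at -171 and -153, beside a TATA box at -31. The Irf2 window held the response element core at -241 and a gamma-activated site at -224. Of 32851 windows of the same length over all genes, 3.44% held the response element core, 8.30% the gamma-activated site and 13.6% the TATA box. All 8 members matched the promoter table, with 11 windows. In the windows not printed, the only match was a TATA box of Irf4. A match is a description of letters, and start sites outside these 11 windows and more distant DNA were not searched.

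Irf7, the inducible regulator of interferon-alpha genes, was far lower in every target shRNA group than in control. Its levels were 7.08, 7.24 and 6.87 on the log2 scale in TSC22D4+LCN13 arrays (mice 29, 30 and 32), and 7.28, 7.42 and 7.50 in TSC22D4 arrays (mice 25, 26 and 27). In LCN13 arrays (mice 21, 22 and 23) they were 7.00, 7.61 and 7.79, against 9.87, 9.93 and 10.33 in control arrays (mice 18, 19 and 20). The 9 target arrays and the 3 control arrays did not overlap, and the lowest control array lay 2.09 above the highest target array. Among the target arrays mouse 21 was low for its group, below every TSC22D4 array.

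Against control, Irf7 changed by -2.98 in TSC22D4+LCN13 arrays (SE 0.196, limma adjusted p = 0.000147), a level 7.92-fold lower. In TSC22D4 arrays the change was -2.65 (SE 0.196, limma adjusted p = 0.000343), or 6.27-fold lower. In LCN13 arrays it was -2.58 (SE 0.196, limma adjusted p = 0.00047), or 5.98-fold lower. By size of fall it ranked 2 of 23185 genes in TSC22D4+LCN13 arrays, 2 in TSC22D4 arrays and 1 in LCN13 arrays. These 3 comparisons share the control arrays. Leaving out any of the 12 arrays in turn kept the call in each comparison. When limma was given the LCN13 and control arrays alone, the adjusted p was 0.0559, for the same change of -2.58.

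The tendon and fibroblast marker mean averaged 9.97 in TSC22D4+LCN13, 9.67 in TSC22D4 and 9.89 in LCN13, against 9.07 in control arrays, and 0 of its 8 genes passed. With this mean as a covariate Irf7 changed by -2.91 in TSC22D4+LCN13 (adjusted p = 0.0146), -2.60 in TSC22D4 (adjusted p = 0.0081) and -2.51 in LCN13 arrays (adjusted p = 0.0339) against control.

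**Figure D1:**
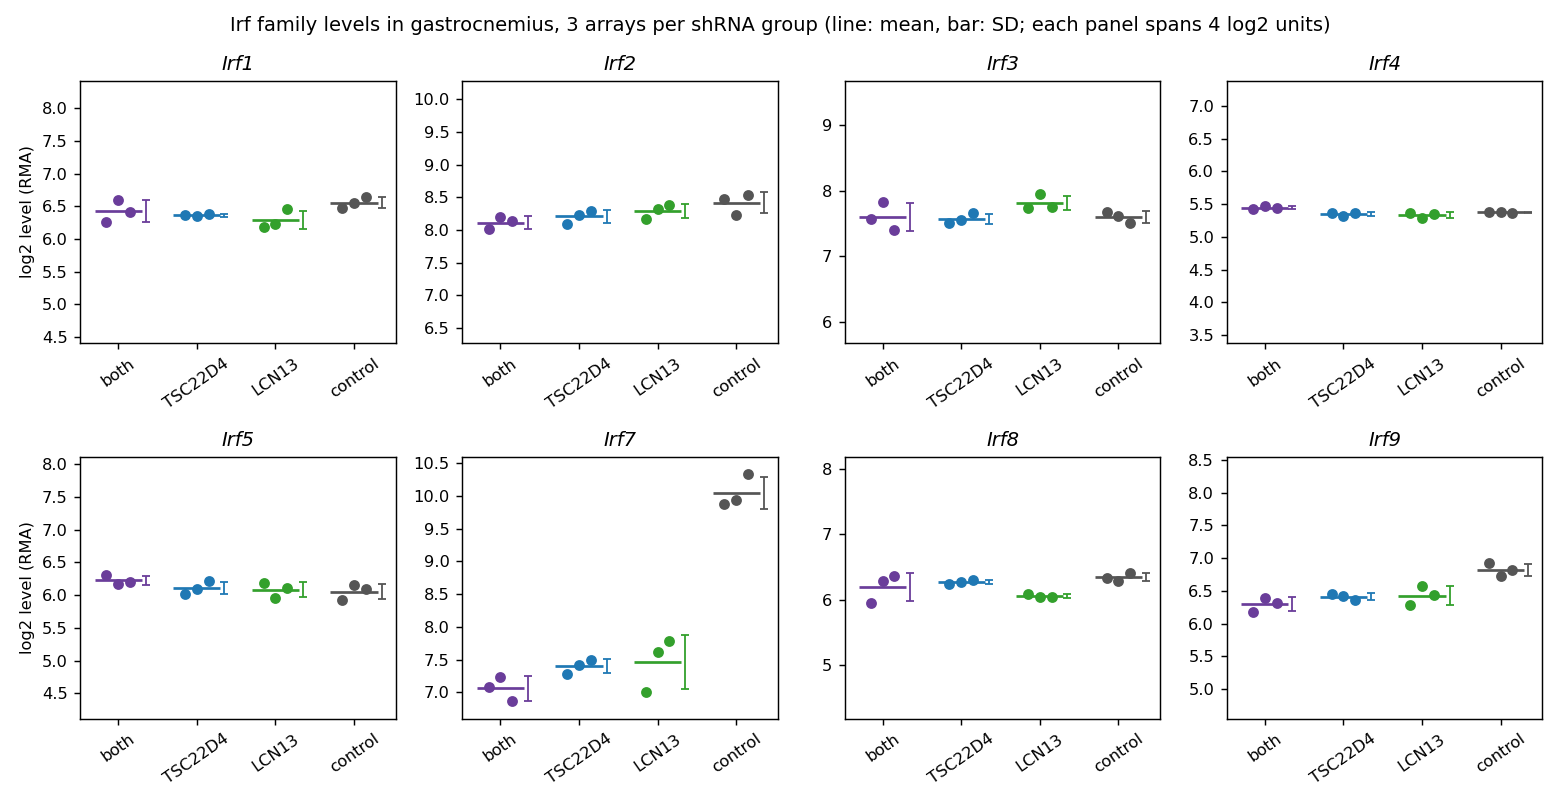
Log2 level of each Irf gene (y axis, 4 log2 units per panel) in the TSC22D4+LCN13 ("both"), TSC22D4, LCN13 and control shRNA groups (x axis). Points are arrays, lines group means and bars the SD of 3 arrays. Irf7 control arrays lie at 9.87 to 10.33, above all target arrays at 6.87 to 7.79, and the Irf9 control arrays also lie above all target arrays.

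Irf9, the DNA-binding subunit of ISGF3, was the other member whose control arrays lay above all 9 target arrays. It measured 6.18, 6.39 and 6.32 in TSC22D4+LCN13 arrays and 6.45, 6.43 and 6.36 in TSC22D4 arrays. LCN13 arrays had 6.28, 6.57 and 6.44, against 6.92, 6.73 and 6.81 in control arrays. The gap between the lowest control and the highest target array was 0.163, far narrower than for Irf7. Of all genes, 1.79% had every control array above every target array, as 2 of the 8 members did. The reverse held for 1.28% of all genes and 0 members.

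Irf9 fell by 0.53 in TSC22D4+LCN13 arrays (SE 0.0792, limma adjusted p = 0.00912), or 1.44-fold. The changes in TSC22D4 arrays, -0.41 (SE 0.0792, limma adjusted p = 0.0855), and in LCN13 arrays, -0.39 (SE 0.0792, limma adjusted p = 0.0647), did not pass. Without LCN13 mouse 22 the LCN13 change was -0.46 and passed (adjusted p = 0.0399). Over the mean of the 3 target groups against control the change was -0.44 (SE 0.0646, limma adjusted p = 0.0125). That call was lost without control mouse 18 (adjusted p = 0.0629) or control mouse 20 (adjusted p = 0.0737). With the tendon and fibroblast marker level as a covariate, the change of Irf9 in TSC22D4+LCN13 arrays was -0.45 (adjusted p = 0.171). It was also not called with the arrays of those 2 groups alone (adjusted p = 0.0571).

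In all, 2 of the 8 members fell and none rose in TSC22D4+LCN13 arrays against control, where 4.34% of all genes passed in either direction, 2.62% lower and 1.72% higher. In TSC22D4 arrays 1 member fell and 7 did not pass, against 0.336% of all genes called, 0.285% lower and 0.0518% higher. In LCN13 arrays 1 fell and 7 did not pass, against 0.850% called, 0.612% lower and 0.237% higher. For the mean of the 3 target groups 2 fell and 6 did not pass, against 1.40% called, 0.893% lower and 0.505% higher. The median change of the 8 members was -0.14, -0.13, -0.19 and -0.18 in the same order of comparisons, and that of all genes lay within 0.00505 of 0.

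**Figure D2:**
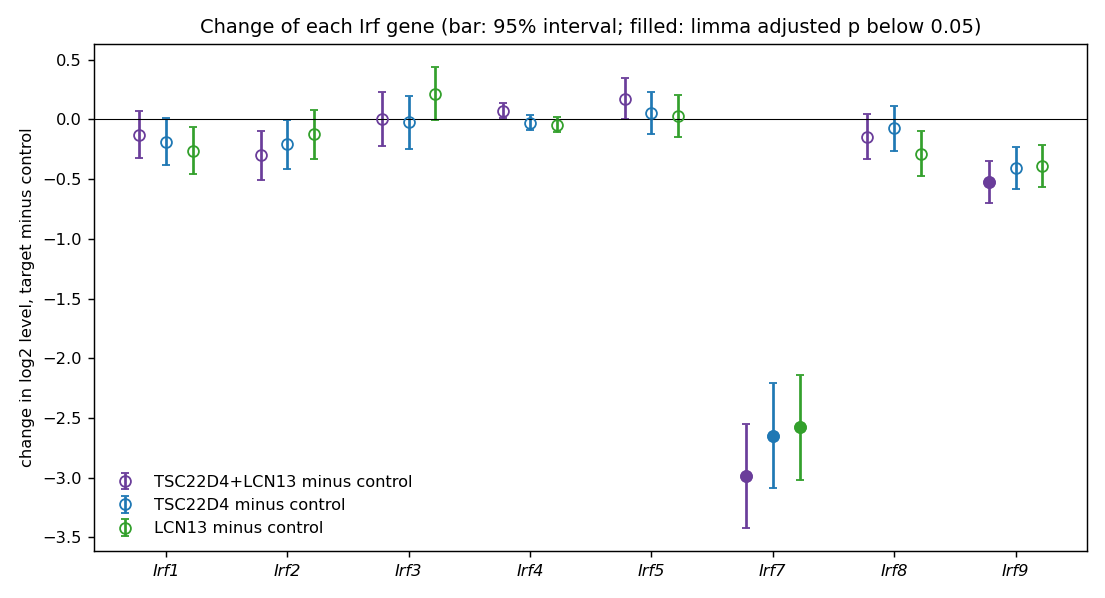
Change in log2 level of each Irf gene (y axis, target minus control) in 3 comparisons, with 95% intervals from limma. Filled points passed an adjusted p of 0.05, which were Irf7 in each comparison and Irf9 in TSC22D4+LCN13, and the intervals of Irf7 lie apart from those of every other member.

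Irf3, the constitutive partner of Irf7 in switching on interferon-beta, did not pass in any comparison. Its mean was 7.60 ± 0.210 in TSC22D4+LCN13, 7.57 ± 0.0750 in TSC22D4, 7.81 ± 0.113 in LCN13 and 7.60 ± 0.0891 in control arrays (SD, n = 3 each). The LCN13 arrays, at 7.74 to 7.94, lay above both the TSC22D4 arrays, at 7.51 to 7.66, and the control arrays, at 7.50 to 7.68. The other pairs of groups overlapped. The share of all genes with such a separation between groups of 3 was not counted. LCN13 against control was 0.22 (SE 0.0996, limma adjusted p = 0.420). Over the mean of the target groups the 95% interval of the change of Irf3 ran from -0.12 to 0.25.

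Irf1, the activator induced by interferon-gamma, and its competitor Irf2 did not pass in any comparison. Irf1 measured 6.27 to 6.59 in TSC22D4+LCN13, 6.34 to 6.39 in TSC22D4, 6.19 to 6.45 in LCN13 and 6.47 to 6.64 in control arrays. Both single-target groups lay below all control arrays, whereas the TSC22D4+LCN13 arrays overlapped them. The share of all genes separated in this way was not counted. The largest difference of Irf1 from control was -0.26 in LCN13 against control (SE 0.0881, limma adjusted p = 0.233). Irf2 measured 8.01 to 8.20 in TSC22D4+LCN13, 8.10 to 8.30 in TSC22D4, 8.16 to 8.38 in LCN13 and 8.23 to 8.54 in control arrays. Its largest difference from control was -0.30 in TSC22D4+LCN13 against control (SE 0.0906, limma adjusted p = 0.0953), and this passed without control mouse 19 (change -0.39, adjusted p = 0.0485).

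The members best known from immune cells did not pass against control. Irf8, a factor of monocyte and dendritic cell development, was 5.96, 6.29 and 6.36 in TSC22D4+LCN13 arrays and 6.24, 6.27 and 6.29 in TSC22D4 arrays. It was 6.09, 6.05 and 6.04 in LCN13 arrays, against 6.33, 6.29 and 6.41 in control arrays. The LCN13 arrays lay below all TSC22D4 and control arrays, though the share of all genes that do so was not counted. The change in LCN13 arrays from control was -0.29 (SE 0.0851, limma adjusted p = 0.182). TSC22D4+LCN13 mouse 29 was the lowest array for Irf8. Without it the LCN13 change was the same and passed (adjusted p = 0.0136), as did TSC22D4+LCN13 against LCN13 (0.26, adjusted p = 0.0237). Irf5, an activator in macrophages, had means of 6.23 ± 0.0678 in TSC22D4+LCN13, 6.11 ± 0.0935 in TSC22D4, 6.08 ± 0.118 in LCN13 and 6.05 ± 0.121 in control arrays (SD, n = 3 each), and its largest change was 0.17 in TSC22D4+LCN13 (SE 0.0776, limma adjusted p = 0.245).

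Macrophage and monocyte markers were measured on the same arrays. Of 14, 3 rose and 11 did not pass in TSC22D4+LCN13 arrays against control, the mannose receptor Mrc1 by 0.81 (limma adjusted p = 0.0200), Adgre1 by 0.49 (adjusted p = 0.0405) and the chemokine receptor Ccr2 by 0.22 (adjusted p = 0.0160), where 1.72% of all genes were higher. Of the 14 markers 4 had a change below 0, among them the monocyte antigen Ly6c2 at -0.49 (adjusted p = 0.130), and the lysosomal protein Cd68 differed by 1.02 (adjusted p = 0.121). The marker mean was 6.56 to 6.98 in TSC22D4+LCN13, 6.45 to 6.55 in TSC22D4, 6.32 to 6.56 in LCN13 and 6.40 to 6.54 in control arrays. Its part in the levels of Irf5 and Irf8 was not tested. Markers of B cells, T and NK cells and dendritic cells had 0 members past the threshold of 8, 11 and 10 measured in any of the 3 comparisons with control. The means of these lists lay between 5.11 and 5.42 on every array, below the median of all genes, 5.48.

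Irf4, a factor of lymphocytes and plasma cells, measured 5.42, 5.48 and 5.44 in TSC22D4+LCN13 arrays and 5.36, 5.31 and 5.37 in TSC22D4 arrays. LCN13 arrays had 5.36, 5.28 and 5.36, and control arrays 5.37, 5.38 and 5.37. The TSC22D4+LCN13 arrays lay above all others, though nothing in the deposited values shows that so low a level is signal. How many of all genes separate this way was not counted. Irf4 was 0.12 higher in TSC22D4+LCN13 than in LCN13 arrays (SE 0.0273, limma adjusted p = 0.0476), where 4.21% of all genes passed, 2.90% lower and 1.32% higher. Leaving out any of the 12 arrays in turn ended this call (adjusted p = 0.0549 to 0.114).

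Set against the other members directly, Irf7 stood apart by size. Over the 9 target arrays and 3 control arrays, the change of Irf7 minus that of another member ran from -2.82 for Irf5 (SE 0.195) to -2.29 for Irf9 (SE 0.162). In the single comparisons it ran from -3.16 for Irf5 in TSC22D4+LCN13 arrays (SE 0.239) to -2.19 for Irf9 in LCN13 arrays (SE 0.198). These differences are given without a test, since all of them hold the same Irf7 values, whose gap of 2.09 exceeds the whole range of any other member (at most 0.741, for Irf9). The lowest 95% bound of any other member against control was -0.70, for Irf9 in TSC22D4+LCN13 arrays, whereas the interval of Irf7 there ran from -3.42 to -2.55.

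Between the target groups no difference in Irf7 passed. Its mean was 7.06 ± 0.185 in TSC22D4+LCN13, 7.40 ± 0.106 in TSC22D4 and 7.47 ± 0.413 in LCN13 arrays, against 10.05 ± 0.248 in control arrays (SD, n = 3 each). TSC22D4+LCN13 minus TSC22D4 was -0.34 (SE 0.196, limma adjusted p = 0.595), in a comparison where 0 genes passed and 2434 had an unadjusted p under 0.05. TSC22D4+LCN13 minus LCN13 was -0.41 (SE 0.196, limma adjusted p = 0.276), and TSC22D4 minus LCN13 was -0.07 (SE 0.196, limma adjusted p = 0.939), where 0.125% of all genes passed, 0.0819% lower and 0.0431% higher. Neighbours in this order of target groups were thus not told apart. Control virus made up all of the dose in the control group, an equal part of it in both single-target groups and none in the TSC22D4+LCN13 group.

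The change of Irf7 with both viruses was smaller than the sum of the changes with each. From the control mean of 10.05, adding the changes of -2.65 and -2.58 would end near the lowest deposited value, 4.78. So deep a fall could hardly have been seen, so a positive interaction does not show that the viruses act on each other. With TSC22D4 virus in place of an equal dose of control virus, the difference in Irf7 was -0.41 in mice that had LCN13 virus and -2.65 in mice that did not, so the effects of more TSC22D4 virus and of less control virus cannot be told apart. The interaction, the first of these changes minus the second, was 2.24 (SE 0.277, limma adjusted p = 0.0229), and 0.125% of all genes passed this test, 0.104% with a positive and 0.0216% with a negative value. Of the 32 type I interferon-induced genes, a list made with earlier results known, 11 passed it with a positive value and the list median was 1.02. The limit set by the lowest deposited value bears on this list too. For Ifit1, adding the 2 single-virus changes would end below that value. For the 7 other Irf genes the interaction lay between -0.19 and 0.32 and did not pass. With 1 of the 12 arrays left out, the call for Irf7 ended in 7 cases, namely without control mouse 18, LCN13 mouse 22, each TSC22D4 mouse and TSC22D4+LCN13 mice 29 and 30. Their values ran from 2.15 to 2.33, with adjusted p up to 0.086. It also ended with the tendon and fibroblast marker mean as a covariate (2.20, adjusted p = 0.0843).

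Among genes without predicted or Riken-type names, those whose profile over the 12 arrays was nearest to that of Irf7 were interferon-induced. The measure was the root mean square difference of log2 levels after each gene was centred on its 12-array mean, and it was 0.281 for Ifit1, an RNA-binding antiviral protein. Next came Oasl2 (0.358) and Oas2 (0.400), which belong to the oligoadenylate synthetases, the nucleotide kinase Cmpk2 (0.450) and Ifit2 (0.453). Irf7 itself had an SD of 1.27 over the 12 arrays. Ifit1 averaged 6.80 in target arrays and 9.62 in control arrays. For Irf9, whose SD was 0.225, the nearest were Slfn2 (0.0674), Oas1g (0.0898), Ifi213 (0.0950), Vps13d (0.0960) and Bst2 (0.0976). Slfn2 averaged 5.63 in target and 6.10 in control arrays. In each of these genes the control mean was the higher one, which follows largely from choosing them by nearness to Irf7 or Irf9.

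**Figure D3:**
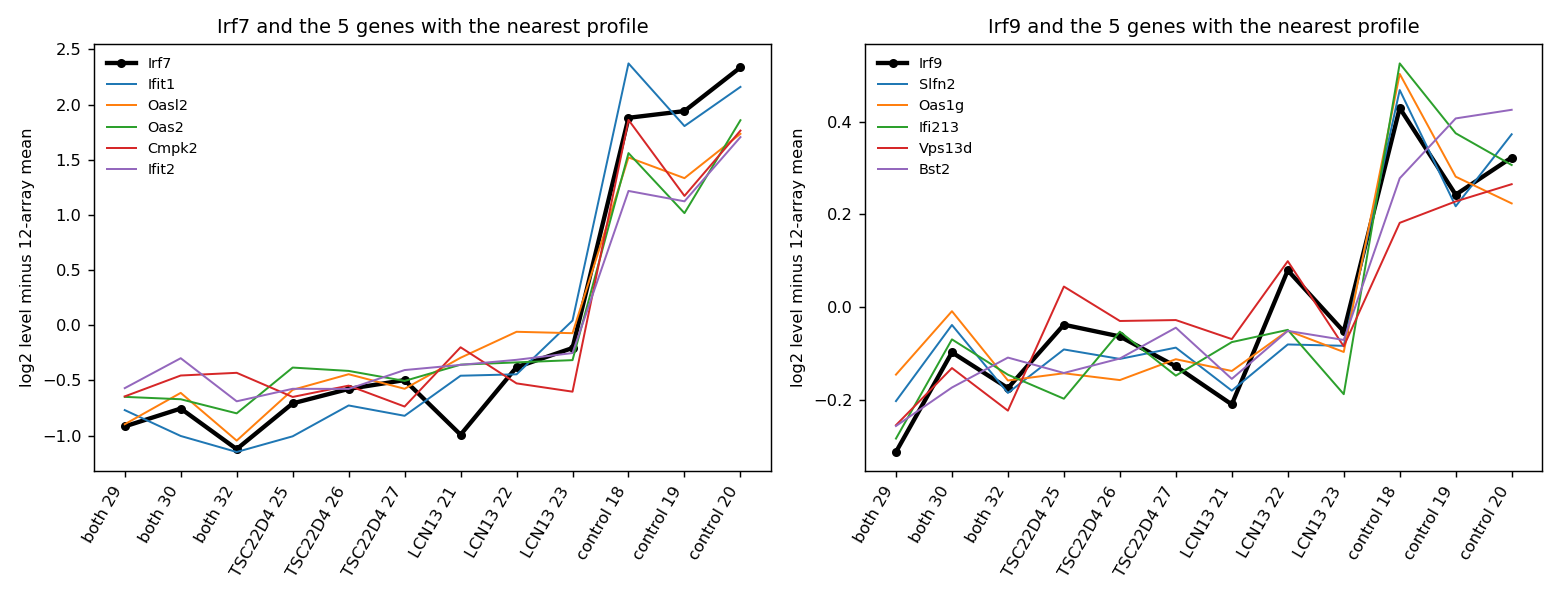
Log2 level minus the 12-array mean (y axis) on each array (x axis, group and mouse number, "both" being TSC22D4+LCN13) for Irf7 and Irf9, in black, and the 5 genes nearest to each. Genes with predicted or Riken-type names were left out. All lines step up from the target to the control arrays, which choosing by nearness favours. Irf7 dips at LCN13 mouse 21, where the other 5 lines do not.

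Other genes of the pathway were taken from lists. Against control, 2.62% of all genes were lower in TSC22D4+LCN13, 0.285% in TSC22D4 and 0.612% in LCN13 arrays. Of 16 measured interferon genes, the ligands, 0 passed in TSC22D4 or LCN13 arrays against control and 1 fell in TSC22D4+LCN13 arrays, Ifna4, by 0.23 (limma adjusted p = 0.0439). The mean of the ligands lay between 5.31 and 5.39 on every array, and Ifnb1 averaged 4.95 in target and 4.94 in control arrays. Ifna genes are near-identical copies, so their probe sets may not tell them apart.

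Of 21 sensors, adaptors and kinases upstream of Irf3 and Irf7, 4 fell and 17 did not pass in each of the 3 comparisons against control. Of all genes, 2.62% were lower in TSC22D4+LCN13, 0.285% in TSC22D4 and 0.612% in LCN13 arrays. The 4 list members that fell were the RNA sensors Ddx58, Ifih1 and Dhx58 and the nucleic acid sensor Zbp1. Ifih1 changed by -1.49 in TSC22D4+LCN13 (limma adjusted p = 0.000147), -1.42 in TSC22D4 (adjusted p = 0.000309) and -1.21 in LCN13 arrays (adjusted p = 0.000822). The kinase Tbk1, which phosphorylates Irf3 and Irf7, differed by -0.20, -0.06 and 0.04 in the same comparisons and the adaptor Mavs by 0.11, 0.13 and 0.06, and neither passed. The endosomal RNA receptor Tlr3 differed by -0.38, -0.46 and -0.61 and the ubiquitin ligase Trim25 by -0.36, -0.34 and -0.35, without passing. The list medians were -0.07, -0.06 and -0.02.

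Of 15 interferon receptor and Jak-Stat genes, 2 fell in each comparison. In TSC22D4+LCN13, TSC22D4 and LCN13 arrays 2.62%, 0.285% and 0.612% of all genes were lower than in control. Stat2, a partner of Irf9 in ISGF3, changed by -1.26 in TSC22D4+LCN13 (limma adjusted p = 0.000147), -0.96 in TSC22D4 (adjusted p = 0.00107) and -1.14 in LCN13 arrays (adjusted p = 0.00047). Usp18, the ISG15 protease that restrains the receptor, changed by -1.87, -1.86 and -1.73. Il10rb, a receptor chain of interferon-lambda and interleukin-10, rose in TSC22D4+LCN13 arrays by 0.68 (limma adjusted p = 0.0166), where 1.72% of all genes were higher. Of 16 partners and regulators of Irf proteins, Trim21, a ubiquitin ligase that acts on Irf proteins, fell in each comparison (changes -0.38, -0.49 and -0.51), and Tcf3 fell in TSC22D4+LCN13 arrays by 0.25 (limma adjusted p = 0.0456).

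Target genes were counted in 2 classes. Of 32 type I interferon-induced genes, 24 fell in TSC22D4+LCN13, 18 in TSC22D4 and 23 in LCN13 arrays against control, and none rose. The list medians were -0.65, -0.73 and -0.86. Of all genes, 2.62%, 0.285% and 0.612% were lower in the same order. Ifit1 changed by -3.09 in TSC22D4+LCN13, -2.96 in TSC22D4 and -2.40 in LCN13 arrays. Of 25 targets of Irf1 and interferon-gamma, 3, 1 and 8 fell and none rose, with medians of -0.14, -0.13 and -0.46. In the Irf1 class the activator of MHC class I genes Nlrc5 fell in all 3 comparisons (changes -0.37, -0.37 and -0.46). The guanylate-binding protein Gbp7 fell in TSC22D4+LCN13 by 0.54 and in LCN13 by 0.90, its relative Gbp3 fell in TSC22D4+LCN13 by 0.73, and the peptide transporter Tap1 fell in LCN13 by 0.74. Averaged over the 3 comparisons, Gbp2 changed by -0.48, Irgm1 by -0.50 and Cd74 by 0.355. Gbp2 passed in at least 1 of them, whereas Irgm1 and Cd74 passed in none. In the mean of the target groups, 20 of the 25 had a change below 0. These lists were made with earlier results of these data known, so their direction is not independent evidence. Hepatocyte markers, of which 0 of 7 passed, averaged 5.88 to 6.92 in TSC22D4+LCN13, 6.03 to 6.17 in TSC22D4, 6.34 to 7.43 in LCN13 and 5.99 to 6.61 in control arrays, and their part was not tested. Of 8 endothelial markers 0 passed.

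**Figure D4:**
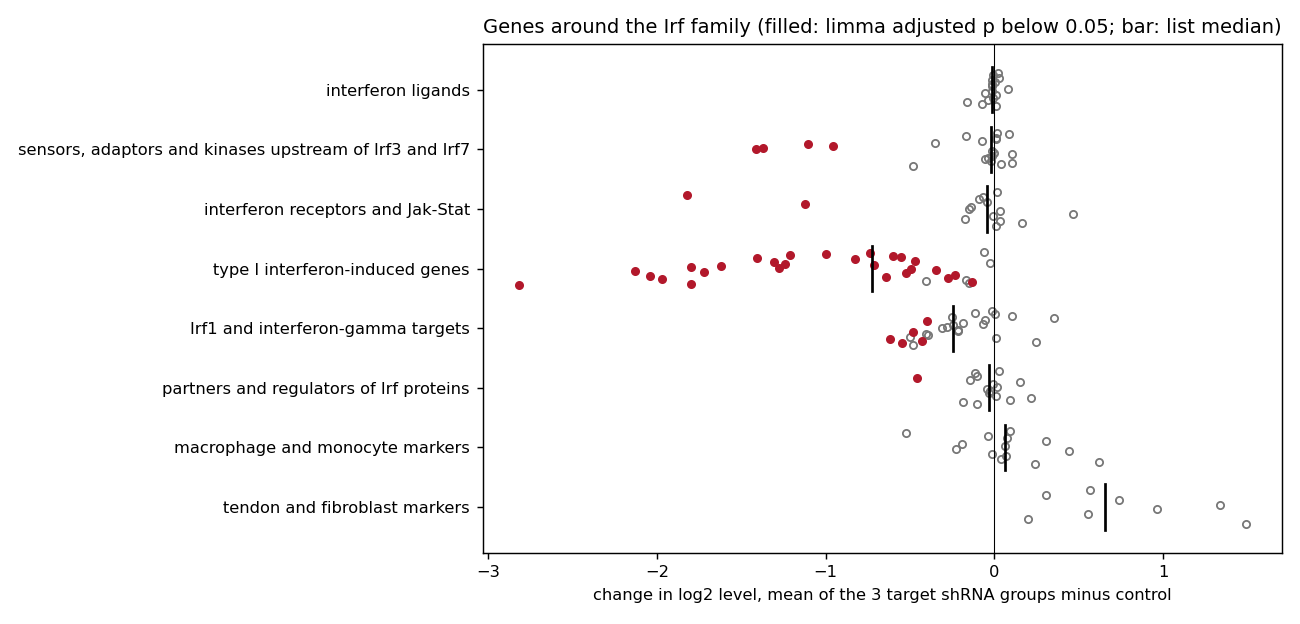
Change in log2 level (x axis, mean of the 3 target shRNA groups minus control) of each gene in 8 lists (rows). Filled points passed a limma adjusted p of 0.05 and bars are list medians, which are -0.73 for type I interferon-induced genes, -0.25 for Irf1 and interferon-gamma targets, -0.01 for interferon ligands and 0.66 for tendon and fibroblast markers.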

How the data were processed

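Total RNA of gastrocnemius from 12 mice had been hybridised to 1-colour arrays, as the labels' protocols state, after biotin labelling. The deposited values are on a log2 scale, and the authors used RMA for them according to the submitters' processing notes, a method that equalises the distributions of the arrays, so a shift of most genes would not be seen. The RMA version and the probe set definitions used are not given here. Probe sets were named through the platform annotation, and 23185 of 25206 had 1 symbol. The number of arrays limits the precision, and no filter or pseudocount was used. Mouse numbers differ between groups and pair no arrays.

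All genes were fitted with limma 3.58.1 in R 4.3.3 (lmFit, eBayes) over 12 arrays with 4 group means, two-sided, adjusted by Benjamini-Hochberg over 23185 genes, with a threshold of 0.05. The steps were checked on simulated data. The planned moderated test of Irf7 minus another gene was dropped, because every row then holds Irf7 and the pooling of spread is not valid. These differences are given with an ordinary SE and no test. Named genes are the 8 members, the targets, up to 4 called and 2 other genes per list by size of mean change, and the 5 genes nearest to each member called against control. The nearest genes were sought among those without predicted or Riken-type names. Not every list gene that the rule picks is named in the text. Beyond this rule Tbk1, Mavs, Ifnb1 and Nlrc5 were chosen after their values were seen. Members and lists were chosen with earlier results of these data known. Alternatives were all probe sets, genes above the median level, trend and robust options, median centring, array weights, the compared arrays alone, each array left out, and the tendon and fibroblast marker level as a covariate, added after seeing the data. Sequences are from RefSeq (GRCm38.p6).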

Additional observations from a re-analysis of the deposited data

Results flagged for a closer look

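The change of Irf7 with TSC22D4 virus, given in place of control virus, differed between mice with and without LCN13 virus. This was tested on the difference itself. Equal changes could hardly have been seen, since LCN13 arrays averaged 7.47 and a further change of -2.65 would end near the lowest deposited value, 4.78. The test thus does not show that LCN13 virus alters the response to TSC22D4 virus. The interaction was 2.24 on the log2 scale (SE 0.277, limma adjusted p = 0.0229), from a change of -0.41 with LCN13 virus and of -2.65 without it. All 3 arrays of each single-target group and of the TSC22D4+LCN13 group lay below all 3 control arrays. With 1 of the 12 arrays left out, the call ended in 7 cases, and with the tendon and fibroblast marker mean as a covariate the adjusted p was 0.0843. The interaction passed with a positive value in 11 of 32 type I interferon-induced genes and in 0.104% of all genes. That list was made with earlier results of these data known, and its genes share the control arrays with Irf7. The limit set by the lowest deposited value also bears on genes of that list with large changes, such as Ifit1. The count is thus not independent evidence.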

How the results depend on the processing

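Irf7 kept its fall against control in TSC22D4+LCN13 and TSC22D4 under all 19 alternatives, in the mean of the target groups under the 18 run for it, and in LCN13 under all but the fit of the compared arrays alone (-2.58, adjusted p = 0.0559). Its interaction was 2.20 (adjusted p = 0.0843) with the tendon and fibroblast markers as a covariate, and 2.01 to 2.402 with 1 array left out. In the 3 single comparisons with control, the change of Irf7 minus that of another member kept its sign in the 19 alternatives, or 18 for Irf4, which lies below the median level. The causes of the following shifts were not tested, beyond the fewer arrays or genes that a setting holds by construction. The number of members past the threshold was 2 in TSC22D4 and 2 in LCN13 against control among genes above the median level and with array weights, Irf9 being added. With the compared arrays alone it was 0 in LCN13 and 1 in TSC22D4+LCN13 against control. With the marker covariate it was 1 in TSC22D4+LCN13 and 1 in the mean against control, and 0 in the interaction. In TSC22D4+LCN13 against LCN13 it was 0 in these 4 settings (above the median, array weights, compared arrays, covariate) and with trend and robust options. With 1 array left out it was 1 to 2 in LCN13, 2 to 3 in TSC22D4+LCN13 and 1 to 2 in the mean against control, 0 to 1 in TSC22D4+LCN13 against LCN13 and 0 to 1 in the interaction.

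Over all genes, 78 passed in TSC22D4 against control, but 28 with the covariate, 177 with array weights, 33 with the compared arrays and 36 to 105 with 1 array left out. In LCN13 against control 197 passed, but 26, 340 and 18 in those settings and 77 to 280. In TSC22D4+LCN13 against control 1007 passed, but 43 with the covariate, 124 with the compared arrays and 334 to 1106. In the mean 324 passed, but 23 with the covariate, 532 with array weights and 90 to 388. In TSC22D4+LCN13 against TSC22D4 none passed and 0 to 2 did with 1 array left out. Against LCN13 977 passed, but 543 with array weights, 0 with the compared arrays and 318 to 1320. In TSC22D4 against LCN13 29 passed, but 4 with the covariate, 67 above the median, 18 with trend and robust options, 235 with array weights, 84 with the compared arrays and 0 to 198. In the interaction 29 passed, but 4 with the covariate, 51 above the median and 3 to 50. With 1 array left out, the lowest counts came without control mouse 20 in LCN13 (77), TSC22D4+LCN13 (334) and the mean (90) against control, and without TSC22D4 mouse 25 in TSC22D4 against control (36). The estimation of array weights stopped short of its convergence tolerance.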

Other observations

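Targets of Irf1 and interferon-gamma were also compared between the groups that carried LCN13 virus. Of 25 measured, 5 rose and none fell in TSC22D4+LCN13 against LCN13 arrays, where 1.32% of all genes were higher and 2.90% lower. The list median was 0.33. The immunity-related GTPase Igtp rose by 1.23, the guanylate-binding protein Gbp2 by 1.01, the GTPase Irgm2 by 0.78, the checkpoint ligand Cd274 by 0.58 and the immunoproteasome subunit Psmb9 by 0.54. These were named after their values were seen. Macrophage and monocyte markers had 2 of 14 higher in this comparison, with a median of 0.23, and hepatocyte markers had 7 of 7 below 0, none past the threshold, with a median of -0.44. The part of these cells was not tested. In the same comparison 2 of 32 type I interferon-induced genes rose and 2 fell, with a median of -0.03, and Irf1 itself was 0.13 higher (limma adjusted p = 0.435). With the arrays of these 2 groups alone, 0 genes passed in all.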
